A study of Mus musculus with 14 samples.

Results

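Histamine and serotonin are the small amines that mast cells store in their granules, and 9 genes that make, store, recapture, break down or sense them were followed in mast cells sorted from mouse ear skin. They were taken by name from a table of 55487 genes (Hdc, Tph1, Ddc, Slc18a2, Slc6a4, Maoa, Maob, Hnmt and Hrh4). All 9 were found and all 9 passed the filter on low counts that left 21014 genes for testing. The libraries fell into 3 groups, each sample a pool of up to 100 sorted cells taken from both ears. Resident mast cells of untreated mice gave 5 libraries (1 to 5), and resident mast cells of mice treated with MC903, a vitamin D analogue whose use on mouse skin produces an inflammation resembling atopic dermatitis, gave 5 (6 to 10). The remaining 4 libraries (11, 13, 14 and 15) are labelled bone marrow mast cells of MC903-treated mice and were taken to be the integrin β7-positive cells that the extraction protocol names. The labels give no strain, age, dose or duration and tie no library to an animal, so p-values measure the spread between these libraries, which may be partly technical. In such pools, fewer cells expressing a gene and less RNA of it per cell cannot be told apart. There was no untreated bone marrow group. In bone marrow against untreated resident cells, the treatment and the cell population therefore cannot be told apart either.

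Histidine decarboxylase, the product of Hdc, makes histamine from histidine in a single step. Serotonin needs tryptophan hydroxylase (Tph1 outside the nervous system) and then aromatic amino acid decarboxylase (Ddc). The vesicular monoamine transporter, encoded by Slc18a2, loads both amines into granules in exchange for protons, and rodent mast cells are known for holding serotonin as well as histamine.

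Total counts per library ranged from 13068078 to 31781926, and each value below is given as CPM (counts scaled to the size of each library, with TMM factors) or, to compare genes with each other, as CPM per kb of gene length. All 10 mast cell markers examined (Kit, Fcer1a, Ms4a2, Cpa3, Mitf, Gata2, Mcpt4, Cma1, Tpsb2 and Itgb7) were detected in all 14 libraries. Their summed level moved with the groups, in ranges that overlapped, with a median of 77890 CPM (71870 to 100900) in untreated resident, 136000 CPM (98580 to 153500) in MC903 resident and 129400 CPM (97370 to 145500) in bone marrow libraries. The markers did not move as one: edgeR called 4 higher and 1 lower in MC903 than in untreated resident cells, with Fcer1a higher (log2 fold change 2.96) and Ms4a2 lower (-0.84), both parts of the IgE receptor. It called 1 higher and 2 lower in bone marrow against MC903 resident cells and 5 higher and 2 lower against untreated ones. Of all genes tested 2.25%, 2.27% and 6.87% were called in these comparisons, or 5.48%, 5.21% and 15.3% of those averaging 10 CPM or more. The 1 higher call was Itgb7 (log2 fold change 1.25, edgeR adjusted p = 0.00237), the gene of the integrin β7 by which the protocol names the cells. Bone marrow library 15 stood apart. Its 10 macrophage and dendritic cell markers summed to 14990 CPM, with all 10 detected, against 17.8, 11.7 and 337 CPM in bone marrow libraries 11, 13 and 14 and 27.9 to 155 CPM in resident libraries. Results for the 9 genes that involve the bone marrow group are therefore also given without it, in some cases by the log2 difference or the adjusted p alone. Levels per kb, ranks and counts over the set include it. MC903 resident libraries 7 and 8 stood apart in another way, with 34560 and 35246 genes detected, against 22632 to 28790 in the other 3 of their group, and with the lowest totals of the 14. Untreated libraries detected 21874 to 25244 genes, and bone marrow libraries 11, 13, 14 and 15 detected 16285, 16025, 19817 and 32814. Basophils also make histamine, and 6 basophil genes summed to 4798 to 16040 CPM in bone marrow and 567 to 1332 CPM in resident libraries, of which Gzmb, at 4481 to 15280 CPM, made up most in bone marrow libraries. Mcpt8 was at 976, 205, 83.2 and 46.5 CPM in libraries 11, 13, 14 and 15 and at 3.15 to 57.0 CPM in resident ones, and Prss34 was at most 15.8 CPM in bone marrow and 42.0 CPM in resident libraries. Ccl3 was at 24.5 to 155 CPM in bone marrow and at most 15.6 CPM in resident libraries, Itga2 went the other way, at 22.8 to 35.9 against 52.9 to 140 CPM, and Cd200r3 overlapped (223 to 580 against 424 to 710 CPM). Mitochondrial genes took 1.22 to 1.70% of counts in untreated resident, 2.39 to 3.96% in MC903 resident and 2.14 to 4.24% in bone marrow libraries. The 6 T cell markers summed to 0.337 to 3.05 CPM in untreated resident, 4.27 to 9.06 CPM in MC903 resident and 0.918 to 31.8 CPM in bone marrow libraries (highest in library 14), and the 6 endothelial markers to 5.35 to 11.3, 11.2 to 25.5 and 15.5 to 45.3 CPM, of which Pecam1 was called higher in bone marrow than in untreated cells (log2 fold change 4.73, edgeR adjusted p = 0.00483). The sum of neutrophil markers was 75.0 CPM in library 15, and no resident library exceeded 4.21 CPM. Keratinocyte, fibroblast and melanocyte markers summed to at most 10.2, 32.3 and 14.1 CPM in any library. The part of these differences in the results was not tested. Calls are edgeR quasi-likelihood tests with a Benjamini-Hochberg adjusted p under 0.05.

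The first synthesis genes of histamine and of serotonin moved in opposite directions in resident cells of treated skin. Hdc (ENSMUSG00000027360.5, on the minus strand of GRCm38 chromosome 2, 126593667 to 126619299) stood at 13050, 11370, 10010, 10710 and 9521 CPM in untreated libraries 1 to 5. In MC903 resident libraries 6 to 10 it was at 5384, 6378, 4190, 6132 and 5708 CPM. Every treated library lay below every untreated one. The mean fell from 10930 ± 1380 to 5559 ± 855 CPM (SD, n = 5 each), or -0.98 ± 0.179 on the log2 scale (SE of the fit; edgeR adjusted p = 0.00333).

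Tph1 (ENSMUSG00000040046.14, on the minus strand of chromosome 7, 46644641 to 46672537) stood at 594, 606, 534, 428 and 713 CPM in the untreated libraries. The treated resident libraries held 2161, 2440, 1561, 2685 and 3031 CPM. The lowest treated library, library 8, was above the highest untreated one, library 5. The mean rose 4.13-fold, from 575 ± 104 to 2376 ± 557 CPM (SD, n = 5 each), and the log2 fold change was 2.05 ± 0.200 (edgeR adjusted p = 6.8e-06). Both calls held in all 8 alternative settings and in all 10 refits with 1 library removed.

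In the bone marrow libraries Hdc was at 7985, 9703, 11710 and 5454 CPM, a mean of 8712 ± 2650 CPM (SD, n = 4). Library 15 lay within the range of the treated resident libraries and the other 3 lay above it. The difference from MC903 resident cells, 0.65 ± 0.187 on the log2 scale (SE), did not pass the threshold (edgeR adjusted p = 0.0777). It passed in 1 of the 8 alternative settings, without a filter on low counts (adjusted p = 6.67e-08). Without library 15 the bone marrow mean was 9799 ± 1860 CPM (SD, n = 3), the groups no longer overlapped, and the log2 difference of 0.83 ± 0.161 (SE) was called (edgeR adjusted p = 0.00453). Set beside untreated resident cells, Hdc in bone marrow cells differed by -0.33 ± 0.189 on the log2 scale, which was not called (edgeR adjusted p = 0.345). Without library 15 the log2 difference was -0.16 (edgeR adjusted p = 0.548).

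Bone marrow Tph1 was at 2009, 1795, 1468 and 1152 CPM, a mean of 1606 ± 376 CPM (SD, n = 4). All 4 libraries were above all 5 untreated libraries, and the log2 fold change against them was 1.48 ± 0.204 (SE, edgeR adjusted p = 7.34e-05). This was 1.62 without library 15 (adjusted p = 8.81e-06). Treated resident and bone marrow libraries overlapped in Tph1, and the log2 difference of -0.56 ± 0.206 was not called (edgeR adjusted p = 0.158, or 0.145 without library 15). It was called in 5 of the 8 alternative settings and without MC903 resident library 8 (-0.76, adjusted p = 0.0418).

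**Figure D1:**
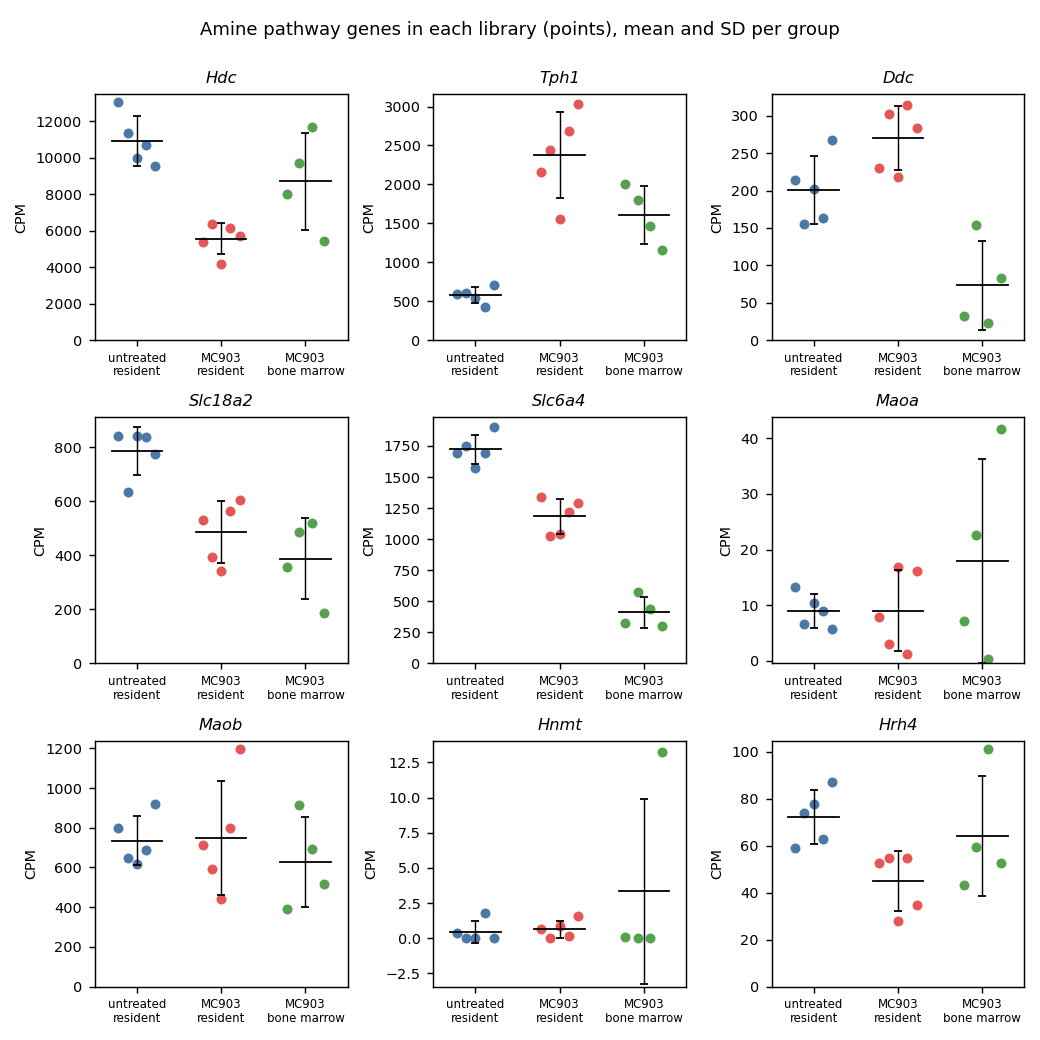
Levels of the 9 genes in CPM (vertical axes, linear scale, a separate scale for each gene) in untreated resident, MC903 resident and MC903 bone marrow mast cells; points are libraries in numerical order from left to right, the long bar is the mean and the whiskers are 1 SD. Hdc has its lowest mean in MC903 resident cells, 5559 CPM, and Tph1 its highest, 2376 CPM. In both genes MC903 resident and bone marrow libraries overlap and their difference was not called. Slc6a4 falls into 3 separate levels with means of 1723, 1183 and 410 CPM, but its difference between the resident groups was not called.

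Per kb of gene length, Hdc exceeded Tph1 in all 14 libraries, but by different margins. The ratio of Hdc to Tph1 was 21.2, 18.1, 18.1, 24.2 and 12.9 in untreated libraries 1 to 5. It was 2.41, 2.53, 2.59, 2.21 and 1.82 in MC903 resident libraries 6 to 10 and 3.84, 5.22, 7.71 and 4.57 in bone marrow libraries 11, 13, 14 and 15. The 3 ranges did not overlap, which is given as a description with no test. Library 15, which had the lowest Hdc and the lowest Tph1 of the bone marrow group, kept a ratio between those of libraries 11 and 13.

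**Figure D2:**
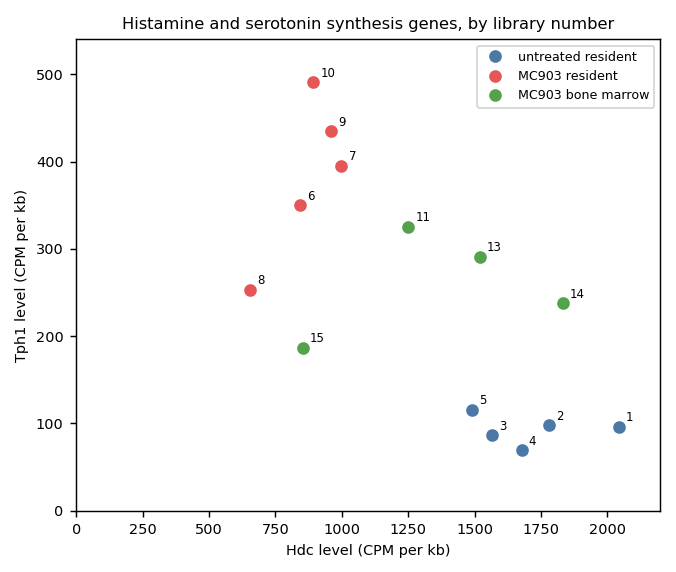
Level of Tph1 against level of Hdc, both in CPM per kb of gene length on linear axes from 0, 1 point per library with its library number. Untreated resident libraries lie at the lower right (ratio of Hdc to Tph1 from 12.9 to 24.2), MC903 resident libraries at the upper left (1.82 to 2.59) and bone marrow libraries between them (3.84 to 7.71).

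Ddc, the decarboxylase of the second step of serotonin synthesis (ENSMUSG00000020182.16, chromosome 11, 11814101 to 11898144, minus strand), showed no called difference between the resident groups. It was at 214, 156, 202, 164 and 268 CPM in untreated resident libraries and at 231, 302, 218, 314 and 283 CPM in treated ones, ranges that overlapped (log2 difference 0.43 ± 0.356, edgeR adjusted p = 0.733). Bone marrow libraries 11, 13, 14 and 15 held 32.6, 154, 23.4 and 83.0 CPM, all below every resident library. The fall was 3.69-fold in mean level against MC903 resident cells, or -1.88 ± 0.399 on the log2 scale (edgeR adjusted p = 0.0148, or 0.029 without library 15). Without bone marrow library 13, the highest of the 4, the log2 fold change was -2.56 against MC903 resident and -2.11 against untreated cells (edgeR adjusted p = 9.94e-05 and 0.000248). Bone marrow libraries varied more among themselves in Ddc (coefficient of variation 81.6%) than in Hdc (30.4%) or Tph1 (23.4%).

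Ddc was also lower than in untreated resident cells (log2 fold change -1.46 ± 0.392, SE, edgeR adjusted p = 0.0282). Of the 9 refits with 1 library removed, 5 lost this call, those without untreated library 1, 3 or 5 (adjusted p = 0.0545, 0.0518 and 0.0608) and without bone marrow library 11 or 15 (0.0711 and 0.055), and it was lost in a fit of these 2 groups alone (0.0844). The ratio of Tph1 to Ddc per kb was 1.89 to 2.81 in untreated resident, 5.17 to 7.74 in MC903 resident and 8.44 to 45.4 in bone marrow libraries.

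For the 5 genes called in at least 1 comparison, the sequences upstream of their RefSeq start sites are shown. The levels of these genes can thus be set beside the letters of their promoters. The 250 bases before each RefSeq start site (GRCm38.p6) were searched for GATA motifs, which were the word AGATAA, the word AGATAG, the word TGATAA and the word TGATAG, and for 2 E-boxes, the word CACGTG and the word CATGTG, on both strands. GATA factors and MITF, which binds such E-boxes, are regulators of the mast cell lineage. Capitals mark the matches, each written as it reads on the strand of the gene. Tph1 and Ddc have 2 RefSeq start sites each and both windows are given. The Hdc window and the windows of the downstream Tph1 and Ddc starts lie inside the gene coordinates given above.
Hdc (chr2:126618679-126618928, minus strand): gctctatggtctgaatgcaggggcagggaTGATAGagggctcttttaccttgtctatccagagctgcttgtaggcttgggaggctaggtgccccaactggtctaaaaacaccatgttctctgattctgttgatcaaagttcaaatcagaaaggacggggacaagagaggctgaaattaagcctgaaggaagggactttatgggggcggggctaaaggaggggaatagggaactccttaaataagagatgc
Tph1, upstream start (chr7:46672538-46672787, minus strand): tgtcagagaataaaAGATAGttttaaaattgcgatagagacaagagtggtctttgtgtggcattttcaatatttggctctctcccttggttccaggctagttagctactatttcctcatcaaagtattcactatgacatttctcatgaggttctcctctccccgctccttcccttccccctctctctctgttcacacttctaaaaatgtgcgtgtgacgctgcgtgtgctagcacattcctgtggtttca
Tph1, downstream start (chr7:46667378-46667627, minus strand): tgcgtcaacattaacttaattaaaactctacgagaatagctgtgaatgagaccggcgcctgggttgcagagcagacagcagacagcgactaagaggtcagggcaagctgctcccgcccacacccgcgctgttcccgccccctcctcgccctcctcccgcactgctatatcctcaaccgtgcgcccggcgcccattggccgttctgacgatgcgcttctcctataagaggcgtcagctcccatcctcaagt
Ddc, upstream start (chr11:11898145-11898394, minus strand): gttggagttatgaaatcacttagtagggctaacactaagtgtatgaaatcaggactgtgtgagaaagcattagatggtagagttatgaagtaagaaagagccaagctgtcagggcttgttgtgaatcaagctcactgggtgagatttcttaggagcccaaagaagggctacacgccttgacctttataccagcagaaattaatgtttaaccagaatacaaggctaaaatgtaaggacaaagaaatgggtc
Ddc, downstream start (chr11:11890409-11890658, minus strand): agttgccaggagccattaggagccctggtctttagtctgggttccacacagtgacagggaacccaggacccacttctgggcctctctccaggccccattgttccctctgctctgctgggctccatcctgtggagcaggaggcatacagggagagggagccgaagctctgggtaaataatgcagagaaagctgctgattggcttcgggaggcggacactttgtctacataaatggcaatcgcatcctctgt
Slc18a2 (chr19:59260628-59260877, plus strand): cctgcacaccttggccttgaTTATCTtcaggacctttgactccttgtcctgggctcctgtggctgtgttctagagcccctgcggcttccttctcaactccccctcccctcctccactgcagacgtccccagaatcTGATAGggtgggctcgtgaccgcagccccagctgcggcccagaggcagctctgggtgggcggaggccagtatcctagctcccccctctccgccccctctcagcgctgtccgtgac
Slc6a4 (chr11:76998347-76998596, plus strand): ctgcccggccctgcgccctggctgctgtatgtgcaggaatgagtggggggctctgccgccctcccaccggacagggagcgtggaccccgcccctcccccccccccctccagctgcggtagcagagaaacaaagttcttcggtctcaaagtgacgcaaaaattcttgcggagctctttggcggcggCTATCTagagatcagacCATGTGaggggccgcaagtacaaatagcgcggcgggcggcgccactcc

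RefSeq windows were found for 7 of the 9 genes, 9 windows in all, and 5 of the 9 windows held a GATA motif, compared with 26.5% of 32851 mouse promoter windows of the same length. The Hdc window held 1 match (TGATAG, starting 221 bases before the start site), and the window of the upstream Tph1 start also held 1 (AGATAG, 236 bases before it). Slc18a2 had matches starting 230 and 115 bases before its start site and Slc6a4 1 match at 65 bases. The remaining window with a match was that of Maoa, a gene called in no comparison (TTATCA, 238 bases before its start site). Neither Ddc window held one of these words. An E-box was found only in the Slc6a4 window among the 9, against 17.6% of all windows. These matches are descriptions of the letters, and the libraries measured no binding there. Gata2 was at 2788 ± 348, 2041 ± 226 (SD, n = 5 each) and 2464 ± 815 CPM (SD, n = 4) in untreated resident, MC903 resident and bone marrow cells and was not called in any of the 3 comparisons, although MC903 and untreated resident libraries did not overlap (edgeR adjusted p from 0.291 to 0.684). Mitf was at 120 ± 25.2, 96.4 ± 21.8 (SD, n = 5 each) and 72.7 ± 9 CPM (SD, n = 4) and was not called either, although bone marrow and untreated libraries did not overlap (log2 difference -0.72 ± 0.222, edgeR adjusted p = 0.0554).

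Both transporter genes were lower in bone marrow cells than in untreated resident cells. Slc6a4 (ENSMUSG00000020838.12, chromosome 11, 76998603 to 77032340, plus strand) encodes the plasma membrane transporter that takes serotonin back into the cell. It was at 1693, 1750, 1574, 1697 and 1900 CPM in untreated resident libraries, 1339, 1028, 1041, 1219 and 1289 CPM in treated resident libraries and 325, 574, 439 and 300 CPM in bone marrow libraries. No library of a group reached the range of another. Bone marrow cells were below MC903 resident cells by a log2 fold change of -1.53 ± 0.188 and below untreated cells by -2.07 ± 0.193 (edgeR adjusted p = 6.92e-05 and 1.02e-06). In mean level the latter was a 4.21-fold difference.

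Without library 15 the Slc6a4 log2 fold changes were -1.40 and -1.95 (edgeR adjusted p = 7.43e-05 and 5.08e-07). Between MC903 and untreated resident cells the Slc6a4 difference of -0.54 ± 0.171 (SE) was not called (edgeR adjusted p = 0.113), although the libraries did not overlap. It was called in 3 of the 8 alternative settings and in none of the 10 refits with 1 library removed. Platelets also take up serotonin through this transporter. The 8 platelet and megakaryocyte markers summed to 286 to 596 CPM in untreated resident, 498 to 892 CPM in MC903 resident and 325 to 1325 CPM in bone marrow libraries. Ppbp and Gp1bb were at 0 in all 4 bone marrow libraries and at most 1.41 CPM in resident ones, whereas Itga2b was at 278 to 889 CPM over all 14 libraries and Pf4 reached 928 CPM in library 15 and at most 5.44 CPM elsewhere. Clec1b was at 0.113 to 5.11, 1.76 to 31.8 and 0 to 1.52 CPM in untreated resident, MC903 resident and bone marrow libraries and, like Slc6a4, its bone marrow range lay wholly below its MC903 resident range. Gp9, Gp5 and Treml1 were at most 5.76 CPM. Their part in the Slc6a4 levels was not tested.

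Slc18a2 (ENSMUSG00000025094.8, chromosome 19, 59260896 to 59296012, plus strand), the gene of the granule transporter, was at 843, 635, 841, 840 and 777 CPM in untreated resident libraries. In the MC903 resident libraries, all below the untreated ones, it was at 530, 394, 341, 563 and 605 CPM, and it was at 357, 488, 521 and 187 CPM in bone marrow libraries. Bone marrow cells fell below untreated resident cells (log2 fold change -1.02 ± 0.247, edgeR adjusted p = 0.0128), and the fold change was -0.79 without library 15 (adjusted p = 0.0221). The difference between MC903 and untreated resident cells, -0.69 ± 0.229, missed the threshold (edgeR adjusted p = 0.134) and passed it in 3 of the 8 alternative settings. MC903 resident and bone marrow cells overlapped (log2 difference -0.33 ± 0.243, edgeR adjusted p = 0.514). Without library 15 the log2 difference was -0.088 (edgeR adjusted p = 0.816).

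**Figure D3:**
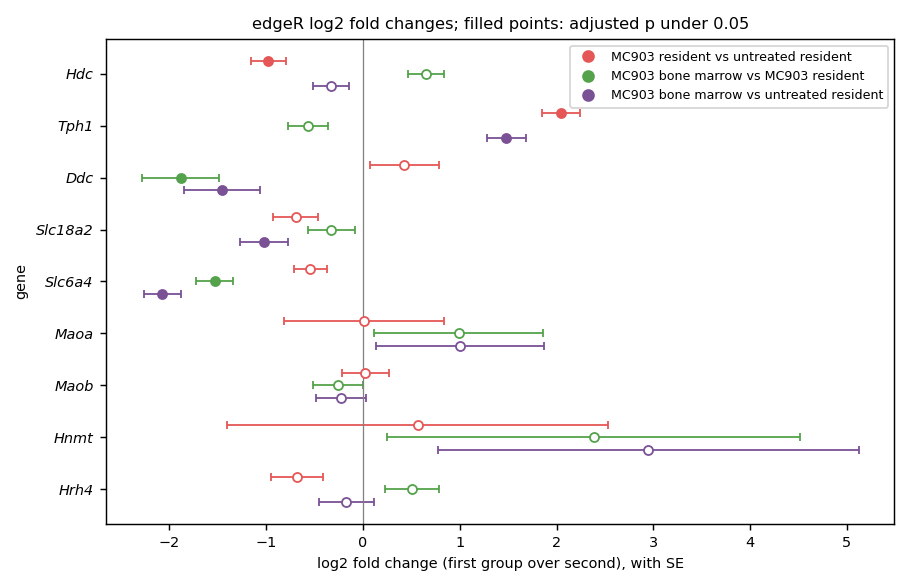
edgeR log2 fold changes of the 9 genes (horizontal axis) with their standard errors, in 3 comparisons; filled points had an adjusted p under 0.05 and open points did not. Tph1 lies to the right of 0 in both comparisons with untreated cells (2.05 and 1.48), Slc6a4 lies farthest to the left among the filled points (-2.07), and the intervals of Hnmt are the widest.

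Of the genes for amine breakdown, Maob was abundant and showed no called difference. Maob (ENSMUSG00000040147.14, chromosome X, 16709282 to 16817366, minus strand) encodes monoamine oxidase B. It was at 801, 649, 618, 691 and 920 CPM in untreated resident, 716, 590, 440, 798 and 1199 CPM in MC903 resident and 390, 913, 693 and 517 CPM in bone marrow libraries. The 3 groups overlapped, with log2 differences of 0.025 ± 0.243, -0.25 ± 0.259 and -0.23 ± 0.259 (SE) for MC903 resident against untreated, bone marrow against MC903 resident and bone marrow against untreated cells. Their edgeR adjusted p-values were 0.99, 0.661 and 0.686, and without library 15 the last 2 differences were -0.16 and -0.14.

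Maoa, which encodes monoamine oxidase A, the form that prefers serotonin (ENSMUSG00000025037.6, chromosome X, 16619698 to 16687818, plus strand), was far lower. Per kb it averaged 2.15, 2.17 and 4.31 CPM in untreated resident, MC903 resident and bone marrow cells, where Maob averaged 264, 268 and 225 CPM. Its libraries scattered widely, from 5.65 to 13.2 CPM in untreated resident cells, from 1.16 to 16.8 CPM in MC903 resident cells and at 7.18, 22.6, 0.298 and 41.7 CPM in bone marrow libraries 11, 13, 14 and 15. No difference in Maoa was called (edgeR adjusted p = 0.998, 0.594 and 0.572). Library 15 held the highest Maoa level of all 14 libraries and library 14 the lowest. Without library 15 the bone marrow differences in Maoa were 0.16 on the log2 scale against either resident group.

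Hnmt (ENSMUSG00000026986.14, chromosome 2, 24002910 to 24049394, minus strand) encodes histamine N-methyltransferase, which inactivates histamine inside cells. It had 0 counts in 6 of the 14 libraries, where the limit of 3 counts would be 0.0944 to 0.214 CPM of the unadjusted total. Its counts were 6, 0, 0, 38 and 0 in untreated resident, 12, 0, 13, 3 and 37 in MC903 resident and 2, 0 and 0 in bone marrow libraries 11, 13 and 14. Library 15 had 262 counts (13.2 CPM), and it is the library with 14990 CPM of macrophage and dendritic cell markers. The sign of the fitted bone marrow difference rested on that library: the log2 fold change against MC903 resident cells was 2.38 ± 2.13 with it and -4.25 without it, and neither was called (edgeR adjusted p = 0.6 and 0.256). Against untreated cells it was 2.95 with library 15 and -3.70 without it (edgeR adjusted p = 0.487 and 0.324). With so few counts these fitted values depend on the prior count of the fit and are no bounds.

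Hrh4, the gene of the histamine H4 receptor (ENSMUSG00000037346.5, chromosome 18, 13006990 to 13022882, plus strand), was the only histamine receptor gene above 10 CPM. It was at 59.1, 73.9, 77.8, 62.8 and 87.0 CPM in untreated resident libraries and at 52.5, 54.7, 28.0, 54.9 and 34.7 CPM in MC903 resident libraries, which all lay lower. The log2 difference was -0.68 ± 0.267 (SE) and was not called (edgeR adjusted p = 0.236). Bone marrow libraries held 43.2, 59.5, 101 and 52.4 CPM and overlapped both resident groups (edgeR adjusted p = 0.355 against MC903 and 0.803 against untreated cells, or 0.162 and 0.886 without library 15). The other 3 histamine receptor genes reached at most 9.74 CPM (Hrh2 in library 13), and 14 serotonin receptor genes at most 5.59 CPM (Htr1b in library 11).

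Counted over the set, MC903 resident against untreated resident cells gave 1 higher and 1 lower call among the 9 genes, where 2.25% of all 21014 genes tested were called (0.571% higher and 1.68% lower). At an unadjusted p under 0.05 there were 5 of the 9, against 12.6% of all genes. The DESeq2 Wald test called 2 of the 9 (5.1% of all genes) and limma 4 (6.46% of all genes), the other 2 being Slc18a2 and Slc6a4. Groups did not overlap for 5 of the 9, with Tph1 higher and Hdc, Slc18a2, Slc6a4 and Hrh4 lower, against 5.33% of all genes tested (2.17% higher and 3.16% lower). Bone marrow against MC903 resident cells gave 2 lower calls (Ddc and Slc6a4) and no higher one, against 2.27% of all genes called (1.32% higher and 0.952% lower). An unadjusted p under 0.05 was found for 4 of the 9, against 17.7% of all genes, and the DESeq2 Wald test called 3 (8.19% of all genes) and limma 2 (9.86% of all genes). The same 2 genes were the ones without overlap, against 8.29% of all genes (3.97% higher and 4.32% lower). Against untreated resident cells 1 gene was higher (Tph1) and 3 lower (Ddc, Slc18a2 and Slc6a4), against 6.87% called in all (3.49% higher and 3.37% lower). The DESeq2 Wald test and limma also called 4 each (13.1% and 10.5% of all genes), and 4 were at an unadjusted p under 0.05 (21.3% of all genes). The 4 genes were also the ones without overlap, against 10.4% of all genes (5.13% higher and 5.28% lower). Among the 8195 genes averaging 10 CPM or more the called shares were higher, at 5.48%, 5.21% and 15.3%. The median log2 fold changes of the 9 genes were 0.011, -0.25 and -0.23, beside 0.24, -0.28 and -0.14 for all genes tested. Each pair of comparisons shares 1 group of libraries.

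The split of calls over all genes depended on scaling and on the test. With DESeq2 size factors 207 genes were higher and 294 lower in MC903 than in untreated resident cells, against 120 and 353 as reported, and for bone marrow against MC903 resident cells 167 were higher and 242 lower, in place of 277 and 200. With TMM factors from genes averaging 10 CPM or more the splits were 251 and 265, and 178 and 258. The DESeq2 Wald test gave 600 higher and 472 lower in the first comparison, and 445 higher and 1275 lower in the second. With limma they were 660 and 697, and 679 and 1394. The DESeq2 size factors moved the median of all genes from 0.24 to 0.40 and from -0.28 to -0.42, and those TMM factors moved it to 0.45 and -0.44. Hdc and Tph1 kept their calls with DESeq2 size factors, with log2 fold changes of -0.84 and 2.17 between MC903 and untreated resident cells, as did Ddc and Slc6a4 between bone marrow and MC903 resident cells (-2.03 and -1.68).

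In order of level per kb, Hdc came first in each group. In untreated resident cells Hdc led at 1711 ± 216 CPM per kb, followed by Slc6a4 (380 ± 26.0), Maob (264 ± 44.4), Slc18a2 (151 ± 17.1) and Tph1 (93.1 ± 16.9; SD, n = 5), and no neighbours in that order overlapped. Hdc ranked at place 23 among all 55487 genes there, at place 43 in MC903 resident and at 35 in bone marrow cells. Tph1 moved from place 502 to 98 and 201. In MC903 resident cells Tph1 was second among the 9, at 385 ± 90.2 CPM per kb, and its range overlapped that of Maob (158 to 430) and of Slc6a4 (227 to 296). In bone marrow cells Tph1 (260 ± 60.9) and Maob (225 ± 81.4) were next after Hdc and overlapped, as did Slc6a4 (90.4 ± 27.7) and Slc18a2 (74.3 ± 29.0; SD, n = 4). By mean, Ddc and Hrh4 lay below these in each group, and Maoa and Hnmt were lowest. In MC903 resident cells the range of Ddc (49.0 to 70.4) overlapped that of Slc18a2 (65.2 to 115.8). In bone marrow cells Hrh4 (26.5 to 62.1) overlapped Slc18a2 (35.85 to 99.7). Ddc there (5.24 to 34.5) overlapped Maoa (0.0714 to 9.999) and Hnmt (0 to 7.48).

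Of 63 other genes of the pathway in 5 lists, 51 were tested. MC903 resident against untreated resident cells gave 0 higher and 3 lower calls, bone marrow against MC903 resident cells 3 higher and 1 lower, and bone marrow against untreated resident cells 2 higher and 6 lower. These are 5.88%, 7.84% and 15.7% of the 51, where 2.25%, 2.27% and 6.87% of all genes tested were called. All these calls fell among the 30 of the 51 that averaged 10 CPM or more, of which 3, 4 and 8 were called, where the shares of all such genes were 5.48%, 5.21% and 15.3%. At an unadjusted p under 0.05 there were 14, 6 and 11 of the 51, against 12.6%, 17.7% and 21.3% of all genes. The DESeq2 Wald test called 5, 5 and 10 of them, against 5.1%, 8.19% and 13.1% of all genes, and limma 6, 4 and 11, against 6.46%, 9.86% and 10.5%. The median log2 fold changes over the 51 were 0.097, 0.039 and 0.041.

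Tetrahydrobiopterin is the cofactor of tryptophan hydroxylase, and Gch1 encodes the enzyme that begins its synthesis. Gch1 was at 922, 717, 900, 986 and 1380 CPM in untreated resident, 535, 455, 431, 738 and 811 CPM in MC903 resident and 921, 1246, 1314 and 955 CPM in bone marrow libraries. All 4 bone marrow libraries exceeded all MC903 resident libraries (log2 fold change 0.90 ± 0.217, edgeR adjusted p = 0.03). Removing 1 library ended this call in 5 of 9 cases (without library 6, 7, 8, 13 or 14, adjusted p from 0.0716 to 0.0951) and with the gene length offset (0.0504). Pcbd1, whose product recycles the cofactor, was at 61.5 ± 6.31 CPM (SD, n = 5) in MC903 resident and 16.2 ± 7.38 CPM (SD, n = 4) in bone marrow cells (log2 fold change -1.93 ± 0.346, edgeR adjusted p = 0.00348). It was also lower than in untreated cells (49.6 ± 18.2 CPM, log2 fold change -1.62, edgeR adjusted p = 0.00461), where untreated library 1 at 23.5 CPM overlapped the bone marrow range. The other 6 tested cofactor genes of that list were not called by edgeR in any comparison. Of the 8 together, in the order of comparisons above, edgeR called 0, 2 and 1, with 2 in each at an unadjusted p under 0.05, the DESeq2 Wald test 2, 2 and 1, and limma 2 in each. Of all genes tested, edgeR called 2.25%, 2.27% and 6.87%, with 12.6%, 17.7% and 21.3% at an unadjusted p under 0.05. The DESeq2 Wald test called 5.1%, 8.19% and 13.1% of them and limma 6.46%, 9.86% and 10.5%.

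Pdxk makes pyridoxal phosphate, the cofactor of both decarboxylases. It fell from 195 ± 22.1 CPM in untreated to 91.4 ± 24.5 CPM in MC903 resident cells (SD, n = 5 each; log2 fold change -1.09 ± 0.254, edgeR adjusted p = 0.0208), with no overlap. The call was lost without library 1, 6, 7 or 8 (adjusted p from 0.0504 to 0.0805). In bone marrow cells Pdxk was at 99.5 ± 47.8 CPM (SD, n = 4), and the call against untreated cells (edgeR adjusted p = 0.0328) was kept only without untreated library 4 or bone marrow library 13 among the 9 refits with 1 library removed. It was also lost in a fit of these 2 groups alone (0.0515).

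Subunit genes of the proton pump that energizes granule loading were called in both directions only in bone marrow against untreated resident cells. Of the 17 pump and storage genes, edgeR called 0 higher and 2 lower, 2 higher and 0 lower, and 2 higher and 4 lower in the order of comparisons above. The other 15, 15 and 11 were not called. Of all genes tested 2.25%, 2.27% and 6.87% were called, or 5.48%, 5.21% and 15.3% of those averaging 10 CPM or more. Atp6v1b2 and Atp6v1h fell in MC903 resident cells, and their log2 fold changes against untreated cells were -1.17 ± 0.247 and -1.01 ± 0.214 (edgeR adjusted p = 0.0103 and 0.0104). The Atp6v1b2 call was lost without library 4 or 8 (0.0579 and 0.0581) and the Atp6v1h call without library 8 (0.0571). In bone marrow against untreated resident cells Atp6v1b2, Atp6v1a, Atp6v1e1 and Atp6v1h, all of the cytosolic part of the pump, were lower (log2 fold changes from -1.54 to -0.77, edgeR adjusted p from 0.000881 to 0.0347). Atp6v1c1, Atp6v1d, Atp6v1f and Atp6v1g1, of the same part, were not called there (log2 differences of -0.36, -0.079, -0.15 and 0.095). The Atp6v1h call was lost without library 1, 3, 5, 11, 14 or 15 and with the gene length offset (0.0651), that of Atp6v1a without library 1, 11 or 14, and that of Atp6v1e1 without library 5, 11 or 14.

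Atp6v0a1, of the membrane part, was at 164, 141, 164 and 172 CPM in bone marrow libraries, above all resident libraries (42.8 to 84.8 CPM). Its log2 fold change was 1.19 ± 0.216 against MC903 resident and 1.61 ± 0.217 against untreated cells (SE, edgeR adjusted p = 0.00365 and 5.71e-05). Srgn, which encodes serglycin, the proteoglycan core that holds amines in the granule, was at 5653, 5131, 5471 and 3547 CPM in bone marrow libraries against 1995 to 3367 CPM in resident ones. It rose by 0.86 ± 0.190 against MC903 resident and 0.95 ± 0.190 against untreated cells on the log2 scale (SE, edgeR adjusted p = 0.0179 and 0.00288). The first of these was lost without library 7 or 8 (0.0619 and 0.0515). Without library 15 the calls between bone marrow and MC903 resident cells for Pcbd1, Atp6v0a1, Srgn and Gch1 were kept (edgeR adjusted p from 0.00218 to 0.0147).

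**Figure D4:**
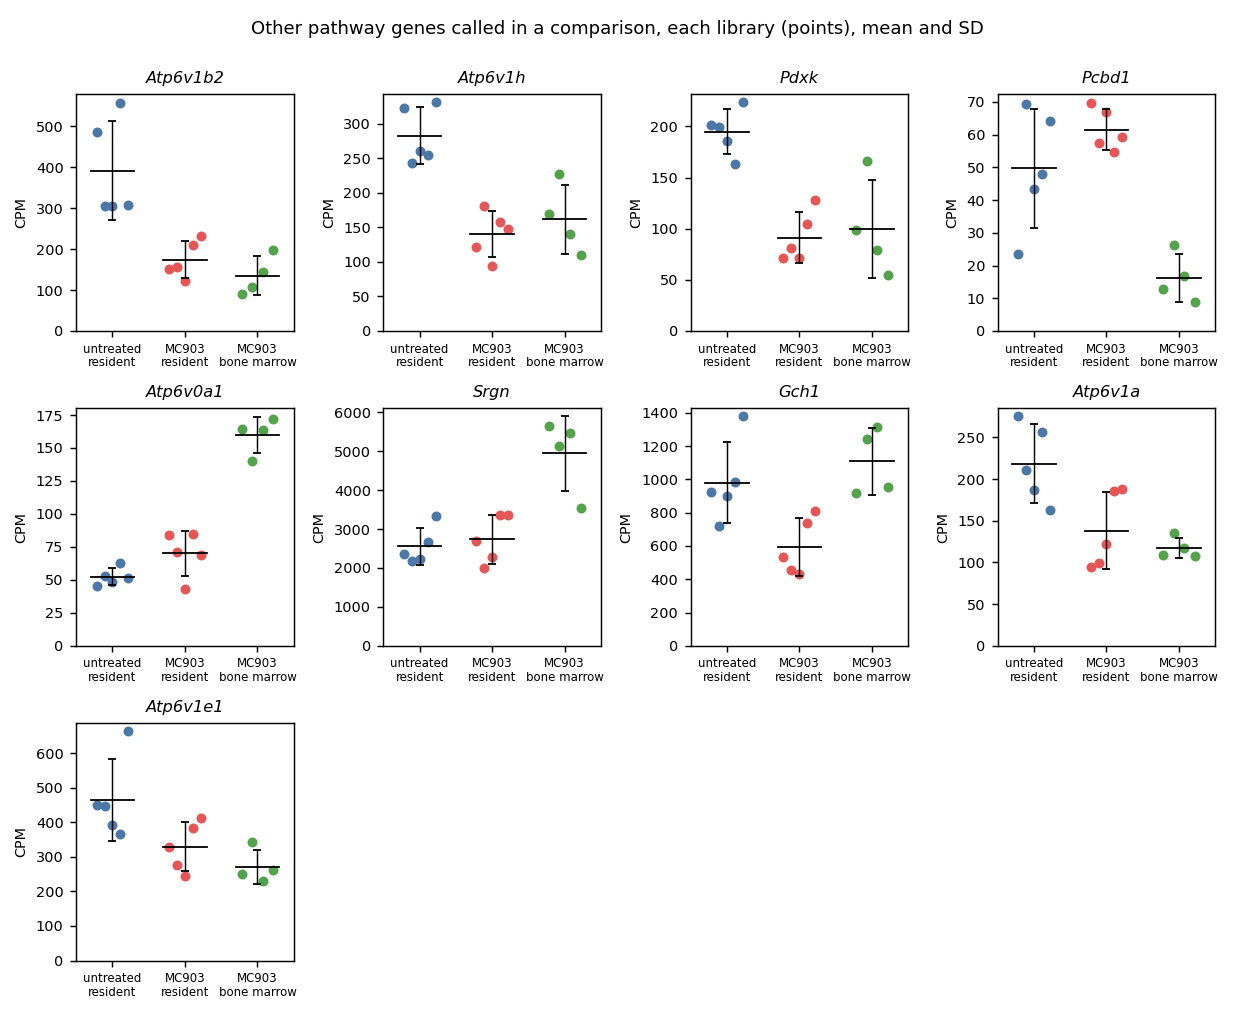
The 9 other pathway genes called in at least 1 comparison, in CPM (vertical axes from 0, linear scale, a separate scale for each gene); points are libraries in numerical order from left to right, the long bar is the mean and the whiskers are 1 SD. Atp6v0a1 and Srgn are above the resident range in all 4 bone marrow libraries, while Atp6v1b2, Atp6v1h and Pdxk are higher in untreated resident libraries than in MC903 resident libraries.

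None of the 11 tested genes in the list of other histamine genes was called by edgeR in any comparison, with 1, 2 and 2 of them at an unadjusted p under 0.05 in the order of comparisons above. The DESeq2 Wald test called 0, 1 and 2 of them and limma 0, 0 and 1. The following 4 were chosen after their values were seen. Slc3a2 and Slc7a5, whose products together import large amino acids such as histidine and tryptophan, were abundant, at means from 1171 to 1261 and from 520 to 612 CPM. Aldh2, an aldehyde dehydrogenase that acts after the monoamine oxidases, was at 395 ± 59.2, 362 ± 111 (SD, n = 5 each) and 239 ± 63.4 CPM (SD, n = 4) in untreated resident, MC903 resident and bone marrow cells (lowest edgeR adjusted p = 0.058, against untreated cells). Aoc1, which encodes the diamine oxidase that degrades histamine outside cells, reached at most 7.39 CPM. Of the 12 tested genes in the list of other serotonin genes edgeR, DESeq2 and limma called 0 in each comparison, with 3, 0 and 0 at an unadjusted p under 0.05 in edgeR. For both lists, the share of all genes at an unadjusted p under 0.05 was 12.6%, 17.7% and 21.3%. The neuronal enzyme gene Tph2 was not tested because of low counts.

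The genes whose pattern over the 14 libraries was most like that of Hdc, Tph1 and Slc18a2 were sought among 7935 genes, those averaging 10 CPM or more less the 9 themselves and predicted genes or clones by symbol, by the mean absolute difference of centred log2 CPM, with no test. For Hdc, whose own mean absolute deviation was 0.451, they were Gna13, Cpsf6 and Eaf1 (differences of 0.162, 0.17 and 0.171). For Slc18a2 (0.457) they were Hpgds, the hematopoietic prostaglandin D synthase gene, Uhrf2 and Optn (0.163, 0.184 and 0.188). For Tph1 (0.836) the nearest was Rprm at 0.291, followed by Hnrnpa0 and the mitochondrial gene mt-Nd6 (0.361 and 0.37). Rprm was at 71.8 ± 34.6 and 347 ± 99.3 (SD, n = 5 each) and 224 ± 78 CPM (SD, n = 4) in untreated resident, MC903 resident and bone marrow cells.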

How the data were processed

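Reads were from pools of sorted mouse mast cells, with complementary DNA made by SMART-Seq HT and libraries by Nextera XT, per the labels' protocols. The deposited table holds raw counts per gene, and the tools STAR and featureCounts and the build mm10 are named in the submitters' processing notes. Versions and the strand setting are not given in the sources used here. Of the gene identifiers, 55094 occurred in GENCODE M21 with the same version, and all 55094 had the same coordinates there, so GRCm38 positions are printed. An antisense gene (Gm29261) overlaps 210 exonic bases of Slc18a2 and had at most 42 counts in any library.

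Genes were filtered with filterByExpr (minimum count 10, minimum total 15), scaled by TMM and fitted in 1 model with 3 groups by edgeR 4.0.16 (glmQLFit, robust, glmQLFTest) in R 4.3.3, with Benjamini-Hochberg adjustment over 21014 genes. Each standard error was taken as the size of the log2 fold change divided by the root of its F statistic. The script was tested on simulated counts with changes planted in genes averaging 10 CPM or more. Of planted log2 changes of 1 it recovered 9%, 11% and 7% in the order of comparisons above. Of planted log2 changes of 3 it recovered 87%, 84% and 74%. A difference that was not called is therefore no evidence that the level was unchanged. Alternatives used DESeq2 1.42.0 and limma 3.58.1 (voomWithQualityWeights). The members, lists, motifs and tests were chosen with earlier results of these data known. Named other pathway genes are those called, at most 8 a comparison. Amplified reads carry no molecular identifiers, so count floors cover counting error only.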

Additional observations from a re-analysis of the deposited data

Results flagged for a closer look

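In 60 groups of values examined, 4 single libraries lay farther from their group than the 95% limit of Dixon's test allows, and chance gives about 1 in 20. Hnmt in bone marrow library 15 was at 13.23 CPM, where the other 3 bone marrow libraries had 0 to 0.0835 CPM. Hnmt in untreated library 4 was at 1.796 CPM, against 0 to 0.339 CPM in the other 4. Atp6v1e1 in untreated library 5 was at 664.8 CPM, against 366.5 to 450.2 CPM. The ratio of Tph1 to Ddc per kb was 2.807 in untreated library 2, against 1.89 to 2.01 in the other 4 untreated libraries.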

How the results depend on the processing

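No paired analysis was possible because the labels tie no library to an animal and no 2 groups share a library number. Whether resident and bone marrow libraries of treated mice came from the same animals is unknown, and the tests took them as independent. The alternatives were DESeq2 size factors, TMM factors from genes averaging 10 CPM or more, testing without a low-count filter, a filter at 10 CPM, the DESeq2 Wald test, limma voomWithQualityWeights, only the groups compared, a gene length offset (20 bins) and leaving out each library. In the order MC903 against untreated resident, bone marrow against MC903 resident and bone marrow against untreated resident, the DESeq2 Wald test called 1072, 1720 and 2757 genes in place of 473, 477 and 1443, and limma called 1357, 2073 and 2212. For bone marrow against MC903 resident cells, no filter gave 748 genes and a fit of only those groups 315. Leaving out 1 library gave 320 to 516, 298 to 704 and 1122 to 1549 genes, and for bone marrow against MC903 resident cells the count was 298 without library 6, 302 without library 7 and 704 without library 15. The causes were not tested.

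For the 9 genes, 189 of 211 values under the other alternatives and 236 of 252 with 1 library left out stayed on the same side of the threshold with the same sign. The sign turned only for results that were not called. Maoa between resident groups was -0.029 with no filter and -0.55 with limma, and ran from -0.28 to 0.31 with 1 library left out. Maob there was -0.0031 with no filter, -0.075 with limma and -0.0025 with the length offset, and ran from -0.11 to 0.23. With limma, Maoa in bone marrow cells was -0.17 against MC903 resident and -0.72 against untreated cells, and Hnmt was -1.83 and -0.42. With 1 library left out, Hnmt ran from -4.25 to 2.95 and from -3.70 to 5.30. Pdxk between bone marrow and MC903 resident cells was -0.017 with DESeq2 size factors and with the DESeq2 Wald test, -0.032 with the other TMM factors, -0.033 with the 10 CPM filter and -0.00083 with the length offset, and with 1 library left out ran from -0.26 to 0.34. Atp6v1h there ran from -0.032 to 0.36. The 10 CPM filter left Hnmt out in all 3 comparisons, and a fit of only the groups compared left it out of both comparisons with untreated cells, so it has no value there.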
